A study of Gallus gallus with 4 samples.

Results

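Cells other than red blood cells were compared between feathers plucked from the back of the chicken embryo and feathers left in the skin, each in 1 whole-cell droplet library at 12 days of incubation. A barcode (the tag of 1 droplet, usually 1 cell) was kept with at least 300 genes, at most 10% of its UMIs in 13 mitochondrial genes and under 10% of its UMIs in 7 globin genes. UMIs are unique molecular identifiers, which count each captured transcript once. These limits kept 11129 of the 67513 barcodes of the series, 5957 from plucked feathers and 5172 from the skin library. Each library's kept UMIs were summed and given as counts per 1000000 UMIs of the library (CPM), so that a ratio compares 1 library with 1 library.

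Both libraries came from White Leghorn embryos at stage 38 of Hamburger and Hamilton, from the dorsal midline, and both tissues were dissociated with Pronase, an enzyme mixture that digests protein. The plucked library is labelled as feather. The other is labelled as feather with epidermis and was made from a strip of skin in which the feathers stayed embedded. The labels give neither the number nor the sex of the embryos, and the nuclei of plucked feathers at 13 and 14 days, which make up the rest of the series, are not compared here.

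The embryonic feather is a tube of epithelium around a mesenchymal pulp. The epithelium folds into barb ridges and cornifies under a sheath, replacing early alpha-keratins with the corneous beta-proteins of the mature feather, while Hedgehog, BMP, WNT and Notch signals pattern the ridges. The skin between and below the feathers adds flat epidermis, dermis and, as development goes on, bundles of smooth muscle that are joined to the follicles by tendon-like tissue.

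Kept barcodes held 54330167 UMIs in plucked feathers, with a median of 8817 UMIs and 2665 genes, and 42678603 UMIs in the skin library, with a median of 6924 UMIs and 1955.5 genes. The libraries shared 20 deposited barcodes, of which 11 were kept in both. Globin genes held 0.0435% and 0.0291% of the kept UMIs, mitochondrial genes 5.63% and 6.06%, and ribosomal protein genes 25.1% and 32.0%, in that order. With 1 library a side there is no replicate and no test. The intervals given below are exact 95% intervals that cover counting error only, so they do not include the spread between embryos or preparations. The libraries also differed in sex. HINTW, a multi-copy gene of the female W chromosome, had 175420 UMIs in plucked feathers and 1 UMI in the skin library, so a difference of sex and a difference of tissue cannot be told apart for any gene below.

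Barcodes with mainly epithelial marker UMIs made up most of the plucked library. In the skin library those with mainly mesenchymal marker UMIs were slightly more frequent than epithelial ones. A barcode was called epithelial-marked where it held at least 5 UMIs of 23 epithelial marker genes and at least 4 times as many as of 20 mesenchymal ones, and mesenchymal-marked where the reverse held. Epithelial-marked barcodes were 4512 of 5957 in plucked feathers (75.7%, 74.6 to 76.8) and 2167 of 5172 in the skin library (41.9%, 40.5 to 43.3), a difference of 33.8 percentage points (31.4 to 36.3). Mesenchymal-marked barcodes were 870 in plucked feathers (14.6%, 13.7 to 15.5) and 2345 in the skin library (45.3%, 44.0 to 46.7), although the skin strip is labelled as epidermis with feathers. The remaining 575 (9.65%) and 660 (12.8%) barcodes met neither rule. The plucked barcodes of this last class were shallow, with a median of 957 UMIs against 5135.

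The classes are ranges of a marker ratio, not cell types. In epithelial-marked barcodes the median was 10175.5 UMIs in plucked feathers and 11337 in the skin library, and in mesenchymal-marked barcodes 4586 and 6246. In plucked feathers 417 barcodes held at least 2 but under 10 times as many epithelial as mesenchymal marker UMIs, and 117 the reverse. In the skin library 550 and 313 did. These counts kept the minimum of 5 UMIs and include barcodes under 4 times, which met neither class rule. The difference in the epithelial share was 33.2 points when every barcode was thinned to 1000 UMIs and 20.1 points with a mitochondrial limit of 5%, which left 2792 barcodes of plucked feathers and 1950 of the skin library. At that limit 48.2% of the skin library's barcodes were epithelial-marked, against 41.9% at the limit of 10%, so this share depends on the filter. The mesenchymal-marked share at the 5% limit is not given here.

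**Figure D1:**
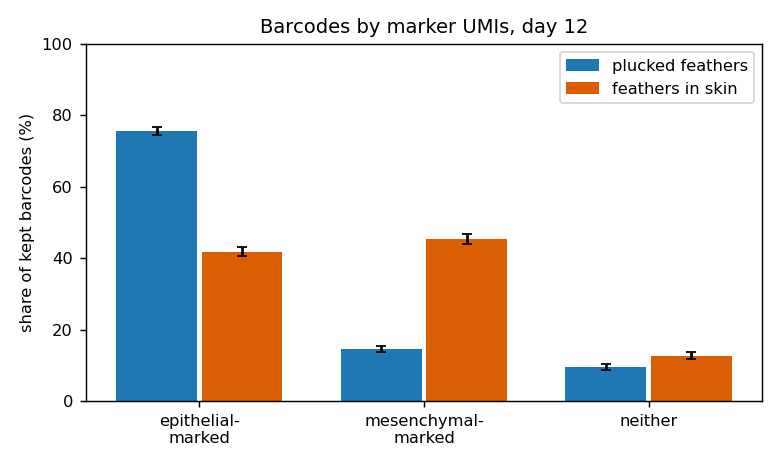
Share of kept barcodes (%) that were epithelial-marked, mesenchymal-marked or neither, in plucked feathers (blue) and feathers in skin (orange) at day 12, with exact 95% binomial intervals as error bars. Epithelial-marked barcodes made up 75.7% in the plucked library and 41.9% in the skin library, and mesenchymal-marked barcodes 14.6% and 45.3%.

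Over the whole libraries, most genes of cornified proteins, barrier lipids and cell junctions at 50 CPM or more were higher in plucked feathers. Most genes of smooth muscle, tendon and collagen at that level were higher in the skin library. Of 3419 genes at 50 CPM or more in either library, 689 (20.2%) were at least 2-fold higher in plucked feathers and 208 (6.08%) at least 2-fold higher in the skin library. Together 26.2% were at least 2-fold apart. A gene under 50 CPM in 1 library passed this minimum through the other library alone, here and in the list counts below. The extremes were lopsided the same way, with 133 genes over 4-fold higher in plucked feathers and 71 over 4-fold lower. The median gene was itself 0.24 higher in plucked feathers on the log2 scale, or 1.18-fold. Relative to that median gene the split was 500 higher and 317 lower, so the share of higher genes among those 2-fold apart was 61.2% in place of 76.8%. Scaling by TMM (trimmed mean of M values) gave 452 and 352 genes (56.2% higher), scaling by the median of ratios 443 and 363 (55.0%), and totals without mitochondrial, globin and ribosomal protein genes 560 and 278 (66.8%). A summed library does not separate fewer cells of a type from less RNA per cell, so class values are given for many of the genes and lists.

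Genes were ranked by ratio without W-linked, mitochondrial and globin genes and without entries that have no symbol. The W-linked genes HINTW and HNRNPKL, given apart, had higher ratios than any gene of this ranking. The 12 highest in the ranking were led by PTPRZ1, a receptor tyrosine phosphatase, with 249 CPM in plucked feathers and 17.1 CPM in the skin library, 14.6-fold (13.6 to 15.8) higher. ABCA12, which loads lipids into the lamellar granules of the epidermal barrier, had 418 CPM in plucked feathers and 29.7 CPM in the skin library, 14.1-fold (13.3 to 14.9) higher. KITLG, the ligand of the KIT receptor on pigment cell precursors, had 190.2 against 16.7 CPM, 11.4-fold (10.6 to 12.3) higher. All 3 kept most of this difference among epithelial-marked barcodes, at 276 against 27.0 CPM for PTPRZ1, 465 against 50.6 CPM for ABCA12 and 212 against 27.1 CPM for KITLG. Proteins of cell contact were also among the 12. PPL (periplakin), which ties keratin filaments to desmosomes, had 575 against 52.7 CPM (10.9-fold (10.4 to 11.4)). PKP1 (plakophilin 1), a plaque protein of desmosomes, had 174 against 21.0 CPM (8.30-fold (7.75 to 8.89)). POF1B, an actin-binding protein of epithelial junctions, had 117 against 13.5 CPM (8.65-fold (7.94 to 9.43)). These differences lay between 5 and 8-fold in epithelial-marked barcodes, below their whole-library values, and PKP1 is one of the markers that define this class.

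The other 6 of these 12 genes are not known chiefly for cornification or cell contact. TIAM1, an activator of the GTPase RAC1, had 237 against 26.4 CPM (8.97-fold (8.44 to 9.55)). PSAP, the precursor of the lysosomal saposins, had 237 against 27.3 CPM (8.68-fold (8.17 to 9.22)). PSAP differed by almost the same factor in both marked classes, 8.50-fold in epithelial-marked and 7.51-fold in mesenchymal-marked barcodes. LY75, an endocytic receptor, had 247 against 31.7 CPM (7.77-fold (7.35 to 8.22)), DCBLD1, a membrane protein, 103 against 12.0 CPM (8.58-fold (7.84 to 9.41)), and PAN3, a subunit of a poly(A)-shortening complex, 65.7 against 7.64 CPM (8.60-fold (7.68 to 9.66)). SYP (synaptophysin), best known from synaptic vesicles, had 57.5 against 7.50 CPM (7.67-fold (6.84 to 8.63)). The SYP difference sat in the epithelial-marked barcodes, at 63.3 against 8.41 CPM, whereas mesenchymal-marked barcodes held 4.02 against 5.96 CPM. A further 8 entries without a gene symbol had higher ratios than PTPRZ1. Of these, 5 had 5 UMIs or fewer in the skin library and 50.9 to 115 CPM in plucked feathers, and the gene table used here gave no chromosome for them.

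**Figure D2:**
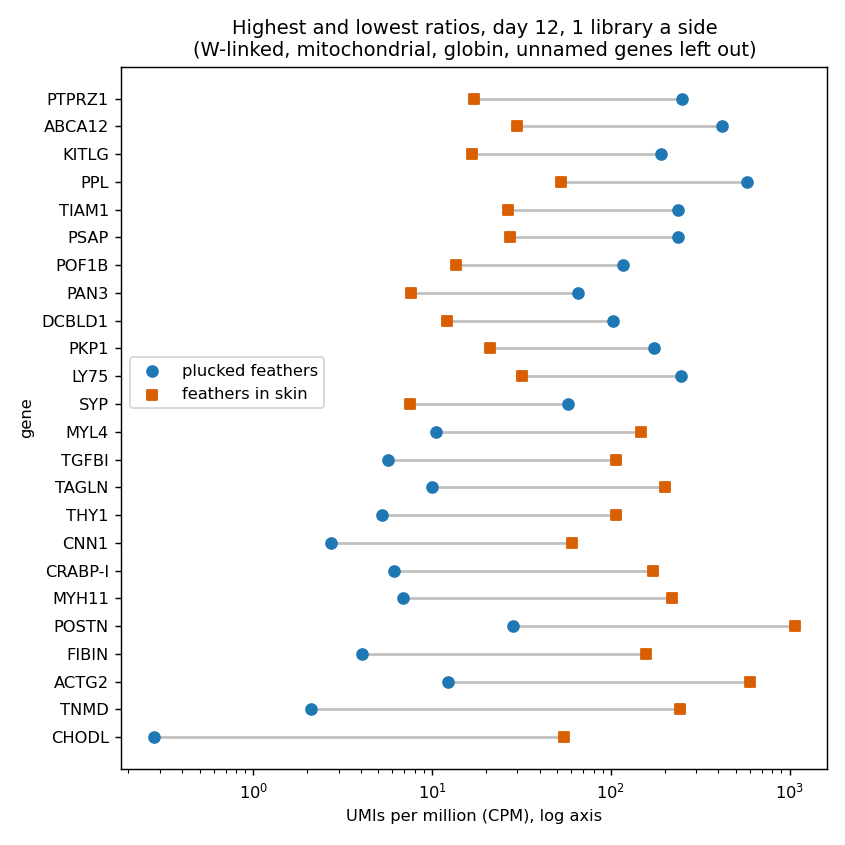
Scaled UMI counts (CPM, log axis) of the 12 highest and 12 lowest genes in the ranking by ratio, which leaves out W-linked, mitochondrial, globin and unnamed genes, in plucked feathers (blue circles) and feathers in skin (orange squares), 1 library each and no error bars. The upper 12 differed by 7.67 to 14.6-fold, and the lower 12 by 14.1 to 198-fold in the other direction.

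At the other end of the ranking stood genes of tendon, smooth muscle and dermal matrix. CHODL (chondrolectin), a C-type lectin, had 15 UMIs or 0.276 CPM in plucked feathers and 54.8 CPM in the skin library, 198-fold (120.1 to 355) higher in skin. TNMD (tenomodulin), a marker of tendon and ligament cells, had 2.10 against 245 CPM, 117-fold (97.0 to 142) higher in skin. Both were part of a list of 14 tendon and fascia genes, of which 6 reached 50 CPM and all 6 were at least 2-fold higher in skin, where 6.08% of all tested genes were. The list's median log2 ratio was -3.095, against 0.24 over all tested genes. Its collagens COL12A1 (32.4 against 283 CPM) and COL14A1 (24.6 against 206 CPM) differed by 8.73-fold and 8.37-fold. CHODL, TNMD, COL12A1 and COL14A1 passed the 50 CPM minimum through the skin library alone. The list was also chosen with earlier results of these data known, so its count describes these genes and is no test.

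Smooth muscle genes formed the next group. ACTG2, the gamma actin of visceral smooth muscle, had 12.2 CPM in plucked feathers and 597 CPM in the skin library, 48.9-fold (45.3 to 52.9) higher in skin. MYH11, the smooth muscle myosin heavy chain, had 6.88 against 221 CPM (32.1-fold (28.9 to 35.6)). CNN1 (calponin), which binds actin, had 2.71 against 60.9 CPM (22.5-fold (19.0 to 26.7)), and TAGLN (transgelin) 9.96 against 202 CPM (20.3-fold (18.6 to 22.2)). Of 12 smooth muscle genes at 50 CPM, 9 were at least 2-fold higher in skin and 1, SMTN, was higher in plucked feathers (6.08% and 20.2% over all tested genes). ACTG2, MYH11, CNN1 and TAGLN passed the 50 CPM minimum through the skin library alone, and SMTN through plucked feathers alone. SMTN (smoothelin) had 56.7 against 23.1 CPM over the whole libraries and 60.8 against 22.5 CPM in epithelial-marked barcodes. The broadly expressed TPM1 (832 against 650.0 CPM) and CALD1 (274 against 225 CPM) differed by less than 2-fold. The actins ACTG2, ACTA2 and ACTA1 are near-identical paralogs, so how counting divided reads among them is uncertain. MYL4, a myosin light chain of embryonic muscle, had 10.5 against 148 CPM (14.1-fold (12.9 to 15.3)). Within mesenchymal-marked barcodes CNN1 was 6.64-fold and MYL4 4.07-fold higher in skin.

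The matrix genes among the 12 were POSTN (periostin), with 28.2 CPM in plucked feathers and 1077 CPM in the skin library (38.2-fold (36.3 to 40.2) higher in skin), and TGFBI, which binds integrins, with 5.69 against 107 CPM (18.8-fold (16.8 to 21.2)). FIBIN, a secreted protein named for the fin bud of zebrafish, had 4.03 against 158 CPM (39.2-fold (34.3 to 45.1)). THY1, a surface protein of fibroblasts, had 5.21 against 107 CPM (20.6-fold (18.3 to 23.3)). CRABP-I, which binds retinoic acid in the cytoplasm, had 6.15 against 172 CPM (27.9-fold (25.0 to 31.3)). Mesenchymal-marked barcodes held 7.78% of the kept UMIs in plucked feathers and 35.8% in the skin library, which enters these whole-library ratios. Within these barcodes the genes were higher in skin by smaller factors. These were 8.09-fold for POSTN, a class marker, 5.37-fold for TGFBI, 9.28-fold for FIBIN, 5.07-fold for THY1 and 16.5-fold for CRABP-I. Of 12 collagen genes at 50 CPM, 9 were at least 2-fold higher in skin and none in plucked feathers (6.08% and 20.2% over all tested genes). Their median log2 ratio was -1.998. Within mesenchymal-marked barcodes the collagen median had the other sign, at 0.74, against 0.40 over all genes tested there. Of 15 collagens there, 7 were at least 2-fold higher in plucked feathers and 3 in skin (25.6% and 4.08% over all genes tested there). Some of these collagens, such as COL1A1, are markers that define the class. The 0.40 and the shares over all genes there leave marker genes out, so these values rest on unlike sets. COL1A1, the main fibrillar collagen chain, had 446 against 4349 CPM (9.76-fold (9.63 to 9.89)), while COL4A1, a chain of basement membrane collagen, had 169.5 against 109.8 CPM.

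Most genes at 50 CPM in 3 epithelial lists, for cornified proteins, barrier lipids and junctions, were higher in whole plucked feathers. Epithelial-marked barcodes held 88.2% of the kept UMIs in plucked feathers and 55.2% in the skin library, which enters these whole-library ratios. Of 6 cornified and feather protein genes at 50 CPM, 5 were at least 2-fold higher in plucked feathers and none in skin, where 20.2% and 6.08% of all tested genes were. EDQM3, a gene of the epidermal differentiation complex (the cluster that encodes cornified-layer proteins), had 2170.1 against 563 CPM (3.86-fold (3.80 to 3.91)). CRNN (cornulin), from the same complex, had 195 against 27.0 CPM (7.21-fold (6.79 to 7.67)) and passed the 50 CPM minimum through plucked feathers alone. F-KER, a feather keratin gene that stayed under 50 CPM, had 44.8 against 2.60 CPM (17.2-fold (14.2 to 21.0)). Feather keratin genes are many near-identical copies, so how its reads were assigned is uncertain. S100A11, a calcium-binding protein, was the exception with 906 against 1102 CPM.

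Of 14 barrier lipid genes found, 5 reached 50 CPM. All 5 were at least 2-fold higher in plucked feathers, where 20.2% of all tested genes were. Beside ABCA12 they were SPTLC3, a subunit of the first enzyme of sphingolipid synthesis, with 115 against 26.8 CPM (4.28-fold (4.02 to 4.57)), the fatty acid elongases ELOVL1 (112 against 46.1 CPM) and ELOVL7 (168 against 74.4 CPM), and the lipid droplet protein PLIN2 (63.3 against 30.3 CPM). ELOVL7 and PLIN2 are Z-linked. All of the 5 but ELOVL7 passed the 50 CPM minimum through plucked feathers alone. Of 9 junction genes at 50 CPM, 8 were at least 2-fold higher in plucked feathers, again against 20.2% of all tested genes. DSP (desmoplakin), which anchors keratin filaments at desmosomes, had 2887 against 671 CPM (4.30-fold (4.25 to 4.36)). GJA1 (connexin 43), a gap junction channel, had 2575 against 843 CPM (3.05-fold (3.02 to 3.09)), and TJP1 (ZO-1), a scaffold of tight junctions, 241 against 43.7 CPM (5.52-fold (5.26 to 5.80)). TJP1 passed the 50 CPM minimum through plucked feathers alone. GJA1 differed by 3.13-fold in epithelial-marked and by 3.20-fold in mesenchymal-marked barcodes, close to its whole-library ratio. The list medians were 1.66 for cornified proteins, 1.28 for barrier lipids and 1.61 for junctions, against 0.24 over all tested genes. In every scaling listed above each kept its sign. Within epithelial-marked barcodes 3 of 5 barrier lipid genes were at least 2-fold higher in plucked feathers and none in skin. Of 10 junction genes there, 5 were higher in plucked feathers and 1 in skin (18.3% and 4.16% over all genes tested there). The medians there were 1.02 and 1.05, against 0.17 over all genes tested. Some junction genes, such as DSP, are markers that define the class.

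Alpha-keratins went against the other epithelial lists. Of 8 at 50 CPM, 3 were at least 2-fold higher in skin and 1 in plucked feathers (6.08% and 20.2% over all tested genes). Their median log2 ratio was -0.21, against 0.24 over all tested genes. KRT24 had 22.5 against 153 CPM (6.78-fold (6.38 to 7.22) higher in skin), KRT13 146 against 343 CPM (2.35-fold (2.29 to 2.41)) and KRT14, the partner of KRT5 in basal keratinocytes, 980.5 against 1976 CPM (2.02-fold (1.99 to 2.04)). KRT6A, a keratin of suprabasal and activated cells in mammals, had 169 against 66.6 CPM (2.53-fold (2.43 to 2.64)). COL17A1, the hemidesmosome collagen of basal keratinocytes, had 38.4 against 96.8 CPM (2.52-fold (2.39 to 2.66) higher in skin).

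Among 16 transcription factors of the epidermis at 50 CPM, 6 were at least 2-fold higher in plucked feathers and 1 in skin, where 20.2% and 6.08% of all tested genes were. In epithelial-marked barcodes the list had 3 of 16 and 1, near the 18.3% and 4.16% of all genes tested there. TFAP2C, an AP-2 factor of epidermal differentiation in mammals, had 83.0 against 14.0 CPM (5.93-fold (5.45 to 6.47)), POU2F3 128 against 37.4 CPM (3.42-fold (3.23 to 3.61)) and KLF5 113 against 36.5 CPM (3.09-fold (2.92 to 3.26)). BARX2, a homeobox factor, had 59.8 against 134 CPM (2.24-fold (2.15 to 2.34) higher in skin). GATA3 (476 against 280.3 CPM) and MSX2 (414 against 155 CPM) had the highest CPM of the list, and MSX2 was 2.67-fold (2.59 to 2.74) higher in plucked feathers. Among 9 dermal factors, 5 were higher in skin and 2 in plucked feathers by 2-fold or more (6.08% and 20.2% over all tested genes), with a median of -1.61. Within mesenchymal-marked barcodes the sign of the median turned to 0.69, with 3 of 10 at least 2-fold higher in plucked feathers and 1 in skin (25.6% and 4.08% over all genes tested there). TWIST1 and TWIST2 of this list are markers that define the class, whereas the shares over all genes leave marker genes out. The lowest whole-library ratios were those of TWIST2 at 13.9 against 116 CPM, HIC1 at 7.25 against 59.3 CPM and TWIST1 at 72.8 against 525 CPM. The 2 dermal factors that were higher in plucked feathers, TSHZ2 (77.1 against 27.2 CPM) and LMX1B (106 against 41.3 CPM), were held mostly by epithelial-marked barcodes, with 83.7 and 115 CPM there against 17.8 and 9.47 CPM in mesenchymal-marked barcodes of plucked feathers.

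**Figure D3:**
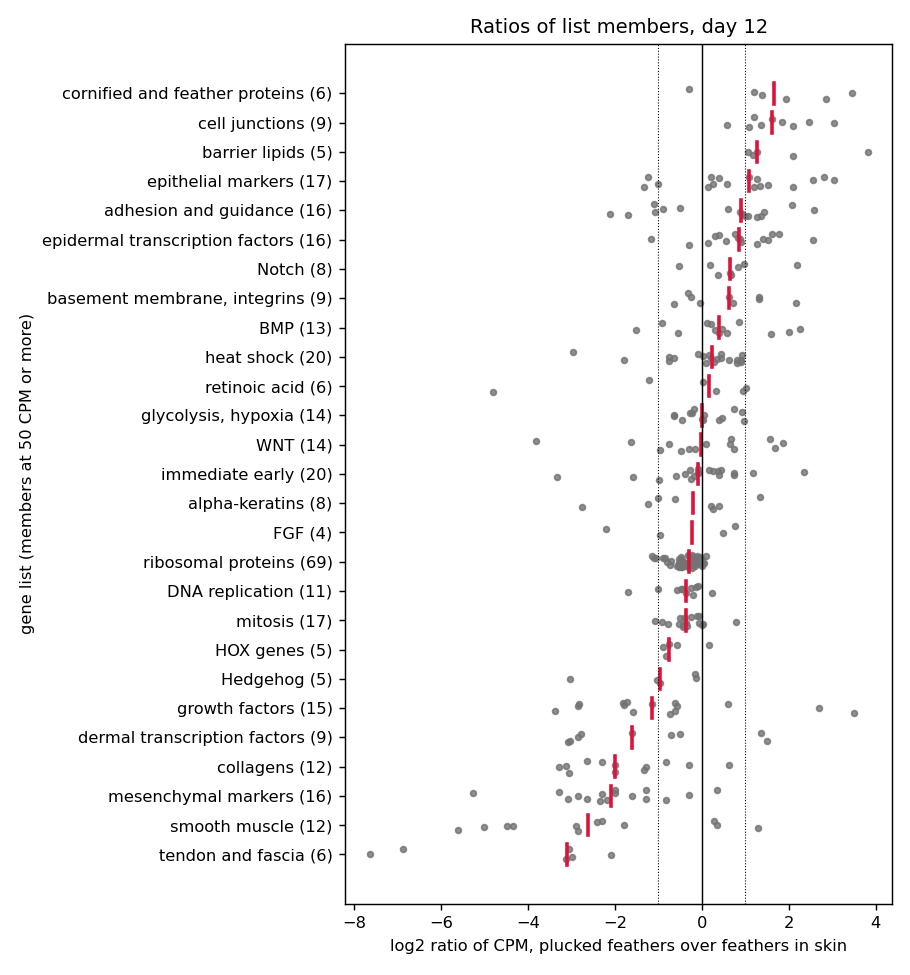
Each grey point is 1 gene at 50 CPM or more in either library, placed by its log2 ratio of CPM (plucked feathers over feathers in skin), in 27 gene lists ordered by their median (red bar), with 2-fold as dotted lines. Tendon and fascia genes had a median of -3.095 and cornified and feather proteins one of 1.66, while all tested genes had 0.24.

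Ratios were also taken within each class, in which the mixture of cells may still differ between the libraries. Genes of both marker lists were left out of the counts over all genes within a class. The counts of gene lists within a class keep them, so the shares over all genes given beside those are without marker genes. Of 3273 genes tested in epithelial-marked barcodes, 600 (18.3%) were at least 2-fold higher in plucked feathers and 136 (4.16%) in the skin library, with a median log2 ratio of 0.17. Of 3501 genes tested in mesenchymal-marked barcodes, 896 (25.6%) and 143 (4.08%) were, with a median of 0.40. Of the 680 genes without marker genes that were higher in whole plucked feathers, 226 were at least 2-fold higher in both classes, 290 in epithelial-marked barcodes alone, 47 in mesenchymal-marked barcodes alone and 117 in neither. Of the 192 that were higher in whole skin, 23 were so in both classes, 39 in epithelial-marked and 48 in mesenchymal-marked barcodes alone and 82 in neither. Free RNA from the other class can enter both classes, and its part was not tested. In mesenchymal-marked barcodes of plucked feathers the epithelial genes ABCA12 and PPL had 20.1 and 33.1 CPM, and in those of skin 2.10 and 4.32 CPM.

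In epithelial-marked barcodes, RFTN1, PTPRZ1 and ABCA12 were among the genes furthest above the skin library and KRT24 was the furthest below. The 5 highest ratios belonged to RFTN1 (raftlin, 55.5 against 4.80 CPM, 11.6-fold (9.57 to 14.1)), PTPRZ1 (10.2-fold), FAM129A (238 against 25.6 CPM, 9.31-fold (8.58 to 10.1)), ABCA12 (9.19-fold) and PSAP (8.50-fold). The lowest was KRT24, an alpha-keratin, with 24.5 CPM in plucked feathers and 252 CPM in the skin library (10.3-fold (9.66 to 10.959) higher in skin). CENPK and CenpA, both centromere proteins, had 13.6 against 62.0 CPM (4.55-fold (4.14 to 4.99)) and 15.3 against 67.9 CPM (4.43-fold (4.05 to 4.84)). NREP had 29.5 against 119 CPM (4.03-fold (3.78 to 4.30)). CENPK and NREP are Z-linked, a group whose general shift is given further on. NREP had 31.8 against 310.2 CPM over the whole libraries and 44.0 against 535 CPM in mesenchymal-marked barcodes.

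Of 8 alpha-keratin genes at 50 CPM in epithelial-marked barcodes, none was 2-fold higher in plucked feathers and 4 were 2-fold higher in skin. Over all genes tested there these shares were 18.3% and 4.16%. KRT18, a keratin of simple epithelia, had 64.4 against 149.8 CPM (2.33-fold (2.22 to 2.44)). KRT14 had 1067 against 2982 CPM (2.79-fold (2.76 to 2.83)), KRT13 155 against 533 CPM (3.44-fold (3.34 to 3.54)) and KRT5 570.0 against 730.2 CPM, though these 3 are among the markers that define the class. The summed level of the 14 measured alpha-keratins was 3356 CPM in epithelial-marked barcodes of plucked feathers and 6298 CPM in those of skin. Cornified proteins ran the other way, with 3 of 6 at least 2-fold higher in plucked feathers, where 18.3% of all genes tested in these barcodes were, and EDQM3 at 2381 against 955 CPM. Most cell division genes were less than 2-fold apart. Of 18 mitosis genes at 50 CPM in these barcodes, 3 were 2-fold higher in skin and none in plucked feathers (median -0.75), and of 11 replication genes likewise 3 and none (median -0.75), against 4.16% and 18.3% of all genes tested there. UBE2C, a ubiquitin enzyme of mitotic exit, had 84.0 against 236 CPM (2.81-fold (2.70 to 2.93)), MCM5, a helicase subunit, 30.8 against 80.6 CPM (2.61-fold (2.44 to 2.80)), and TOP2A, the topoisomerase of dividing cells, 282 against 392 CPM (1.39-fold (1.35 to 1.43)).

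In mesenchymal-marked barcodes, most basement membrane genes were higher in plucked feathers and most smooth muscle genes in skin. Tendon and fascia genes leaned to skin, with 4 of 8 at least 2-fold higher in skin and 1 in plucked feathers (4.08% and 25.6% over all genes tested there). NID1 (nidogen), which links laminin to collagen IV, had 1484 CPM in plucked feathers and 74.8 CPM in the skin library (19.8-fold (18.6 to 21.1)). LAMC1 and LAMA4, laminin chains, had 353 against 30.2 CPM (11.7-fold (10.5 to 13.0)) and 596 against 80.5 CPM (7.40-fold (6.91 to 7.93)), and COL4A1 had 1928 against 264 CPM (7.31-fold (7.04 to 7.60)). Of 12 basement membrane and integrin genes at 50 CPM in these barcodes, 9 were at least 2-fold higher in plucked feathers and none in skin. Over all genes tested there 25.6% and 4.08% were. The list's median was 1.73, against 0.40 over all genes tested there. In the whole libraries the same list had 3 of 9 and none (20.2% and 6.08% over all tested genes). Also among the 5 highest were CALB1, a calcium buffer (126 against 3.21 CPM, 39.4-fold (29.4 to 53.9)), EDA, the ligand of the ectodysplasin receptor (59.2 against 1.77 CPM, 33.5-fold (22.5 to 51.8)), and PRSS23, a serine protease (63.0 against 3.08 CPM, 20.5-fold (15.0 to 28.5)). Their whole-library levels were low, at 10.3 CPM for CALB1 and 5.23 CPM for EDA in plucked feathers.

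The lowest ratios in mesenchymal-marked barcodes were those of TMEM158, a membrane protein (1.89 against 109 CPM, 57.7-fold (29.2 to 134) higher in skin), CHODL (2.84 against 144 CPM, 50.7-fold (28.9 to 98.2)), TNMD (21.1 against 669.7 CPM, 31.8-fold (25.8 to 39.6)), CRABP-I (28.2 against 465 CPM, 16.5-fold (13.8 to 19.9)) and PTGFR, the receptor of prostaglandin F (3.31 against 51.5 CPM, 15.5-fold (9.21 to 28.6)). TMEM158 and CHODL rested on 8 and 12 UMIs in the plucked barcodes. Of 8 tendon and fascia genes at 50 CPM there, 4 were at least 2-fold higher in skin and 1 in plucked feathers (4.08% and 25.6% over all genes tested), with a median of -0.87. The 1 was THBS2, a thrombospondin of the matrix, with 99.7 against 39.9 CPM. Of 12 smooth muscle genes at 50 CPM there, 8 were at least 2-fold higher in skin and none in plucked feathers (4.08% and 25.6% over all genes tested). ACTG2 had 135 against 1599 CPM (11.8-fold (10.9 to 12.9)), MYH11 67.9 against 597 CPM (8.79-fold (7.82 to 9.92)) and TAGLN 72.7 against 538 CPM (7.40-fold (6.60 to 8.32)). These ratios were smaller than the whole-library ones, in which mesenchymal-marked barcodes were also fewer in plucked feathers. PTN (pleiotrophin), a heparin-binding growth factor and ligand of PTPRZ1, had 769 against 118 CPM (6.53-fold (6.16 to 6.92)). COL3A1 had 2019.7 against 1822 CPM and is one of the class markers.

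**Figure D4:**
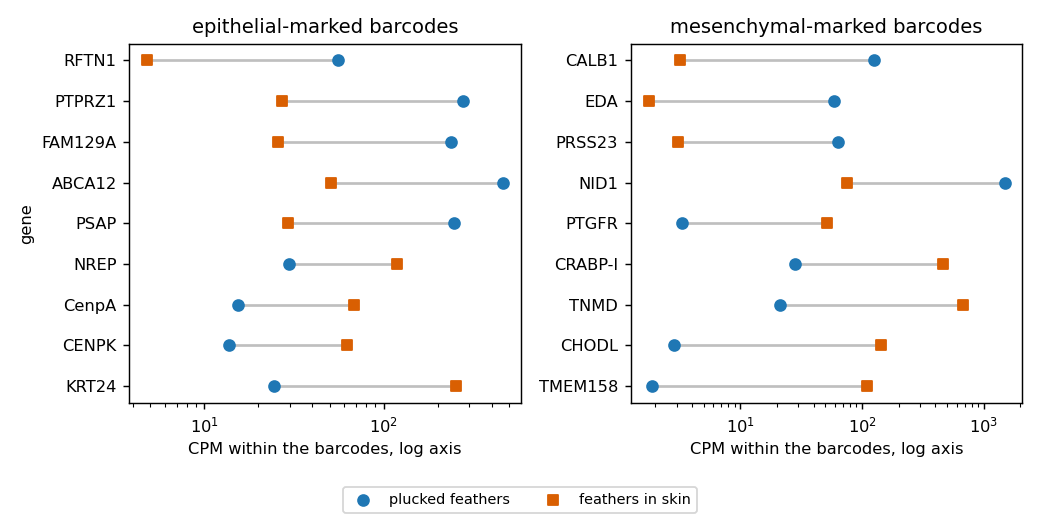
CPM (log axis) within epithelial-marked (left) and mesenchymal-marked barcodes (right) of the named genes with the highest and lowest ratios in each (9 genes a panel), in plucked feathers (blue circles) and feathers in skin (orange squares), 1 library each. KRT24 had 24.5 against 252 CPM in epithelial-marked barcodes, and NID1 1484 against 74.8 CPM in mesenchymal-marked barcodes.

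The share of barcodes with a UMI of a gene depends on depth, so barcodes were also thinned to 1000 UMIs, leaving 4217 epithelial-marked and 850 mesenchymal-marked barcodes of plucked feathers and 2076 and 2311 of the skin library. ABCA12 was then found in 27.4% of epithelial-marked barcodes of plucked feathers and 3.71% of those of skin (unthinned 58.2% and 18.2%). Mesenchymal-marked barcodes, which should lack it, gave 2.47% and 0.130%. KRT24 was found in 2.04% and 9.15% of epithelial-marked barcodes (unthinned 10.7% and 26.9%), against 0.353% and 0.952% of mesenchymal-marked ones. NID1 was found in 63.6% of mesenchymal-marked barcodes of plucked feathers and 6.58% of those of skin (unthinned 86.6% and 26.4%), against 0.522% and 0.0963% of epithelial-marked ones. TNMD was found in 1.18% and 29.7% of mesenchymal-marked barcodes (unthinned 3.91% and 51.7%), against 0.0711% and 0.482% of epithelial-marked ones. For these 4 genes the shares differed between the libraries in the direction of the CPM.

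Among the signalling genes, the Hedgehog receptor PTCH1 differed in opposite directions in the classes, and the difference between the classes was not tested. Of 5 Hedgehog genes at 50 CPM, 2 were at least 2-fold higher in skin and none in plucked feathers (6.08% and 20.2% over all tested genes), and in mesenchymal-marked barcodes 2 and 4 of 8 were (4.08% and 25.6%). SHH, the ligand made by barb ridge epithelium, had 103 CPM in plucked feathers and 115 CPM in the skin library over the whole libraries and 114 against 195 CPM in epithelial-marked barcodes (1.71-fold (1.65 to 1.78) higher in skin). After thinning SHH was found in 6.95% (6.20 to 7.76) of epithelial-marked barcodes of plucked feathers and 8.91% (7.72 to 10.2) of those of skin, so the intervals met (unthinned 16.3% and 20.2%). Mesenchymal-marked barcodes gave 0.353% and 0.476%. PTCH1, the SHH receptor and a target of the pathway, had 22.9 against 70.0 CPM in epithelial-marked (3.06-fold (2.84 to 3.31) higher in skin) and 93.0 against 45.5 CPM in mesenchymal-marked barcodes (2.04-fold (1.80 to 2.32) higher in plucked feathers). PTCH1 is Z-linked. The co-receptor BOC had 7.47 against 61.4 CPM (8.22-fold (7.40 to 9.15) higher in skin) and HHIP, which binds the ligand, 317 against 34.8 CPM in mesenchymal-marked barcodes (9.09-fold (8.22 to 10.1) higher in plucked feathers).

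Of 13 BMP pathway genes at 50 CPM, 3 were at least 2-fold higher in plucked feathers and 1 in skin, near the 20.2% and 6.08% of all tested genes. Among the ligands, BMP7 had 72.0 against 14.9 CPM (4.82-fold (4.43 to 5.25) higher in plucked feathers) and BMP2 57.2 against 31.7 CPM. BMP4, which had under 3 CPM in epithelial-marked barcodes, had 25.5 against 73.0 CPM over the whole libraries (2.86-fold (2.68 to 3.05) higher in skin) but 269 against 185 CPM within mesenchymal-marked barcodes, where it was 1.46-fold (1.36 to 1.56) higher in plucked feathers. The receptor BMPR2 had 89.3 against 22.4 CPM (3.99-fold (3.72 to 4.28)) and the inhibitory pseudoreceptor BAMBI 538 against 179 CPM (2.999-fold (2.92 to 3.08)). The antagonist NOG had 12 UMIs in plucked feathers and 64 in the skin library. Over 8 Notch genes, 1 was 2-fold higher in plucked feathers and none in skin (20.2% and 6.08% over all tested genes). That gene was the ligand JAG1, with 82.6 against 18.1 CPM (4.56-fold (4.22 to 4.93)), while the receptor NOTCH1 had 309 against 197 CPM.

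Of 14 WNT genes at 50 CPM, 3 were at least 2-fold higher in plucked feathers and 2 in skin, where 20.2% and 6.08% of all tested genes were. LGR4, a receptor of R-spondins, had 158 against 43.2 CPM (3.65-fold (3.47 to 3.84)), and WNT16 73.8 against 23.0 CPM (3.21-fold (2.99 to 3.44)). SFRP2, a secreted WNT-binding protein, had 14.5 against 204 CPM (14.1-fold (13.1 to 15.1) higher in skin), and the nuclear effector TCF7L2 79.4 against 246 CPM (higher in skin, with an interval of 2.99 to 3.21-fold). WNT5A had 124 against 208 CPM and WNT6 114 against 126 CPM. LEF1, a nuclear effector of WNT signals, had 62.2 against 58.1 CPM over the whole libraries but 335 against 59.9 CPM in mesenchymal-marked barcodes (5.59-fold (5.14 to 6.08) higher in plucked feathers). In those barcodes 10 of 14 WNT genes were 2-fold higher in plucked feathers and 1 in skin, where 25.6% and 4.08% of all genes tested were.

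Of 4 FGF pathway genes at 50 CPM, 1 was 2-fold higher in skin and none in plucked feathers (6.08% and 20.2% over all tested genes). That gene was the receptor FGFR1 (11.4 against 52.4 CPM, 4.59-fold (4.20 to 5.03)). FGFR2, the receptor through which mesenchymal FGF10 reaches epithelium, had 143 against 84.4 CPM. FGF10, which is Z-linked, stayed under 50 CPM in whole libraries and had 53.0 against 20.1 CPM in mesenchymal-marked barcodes (2.64-fold (2.21 to 3.14)). The receptor EDAR was low, at 8.47 against 7.19 CPM. Among 15 growth factors and their binding proteins, 8 were at least 2-fold higher in skin and 2 in plucked feathers (6.08% and 20.2% over all tested genes), with a median of -1.15. In epithelial-marked barcodes 2 of 7 were higher in each library (18.3% in plucked feathers and 4.16% in skin over all genes tested there). In mesenchymal-marked barcodes 3 of 17 were higher in skin and 5 in plucked feathers (4.08% and 25.6% over all genes tested there). Their median there was 0.25, against 0.40 over all genes tested there. The 2 higher in whole plucked feathers were KITLG and AREG, a ligand of the EGF receptor, with 139.8 against 21.5 CPM (6.501-fold (6.07 to 6.97)). CXCL12, a chemokine of mesenchyme, had 6.52 against 67.3 CPM (10.3-fold (9.25 to 11.6) higher in skin), CXCL14 11.2 against 81.2 CPM (7.25-fold (6.65 to 7.91)) and PDGFA 12.9 against 91.4 CPM (7.10-fold (6.55 to 7.71)).

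**Figure D5:**
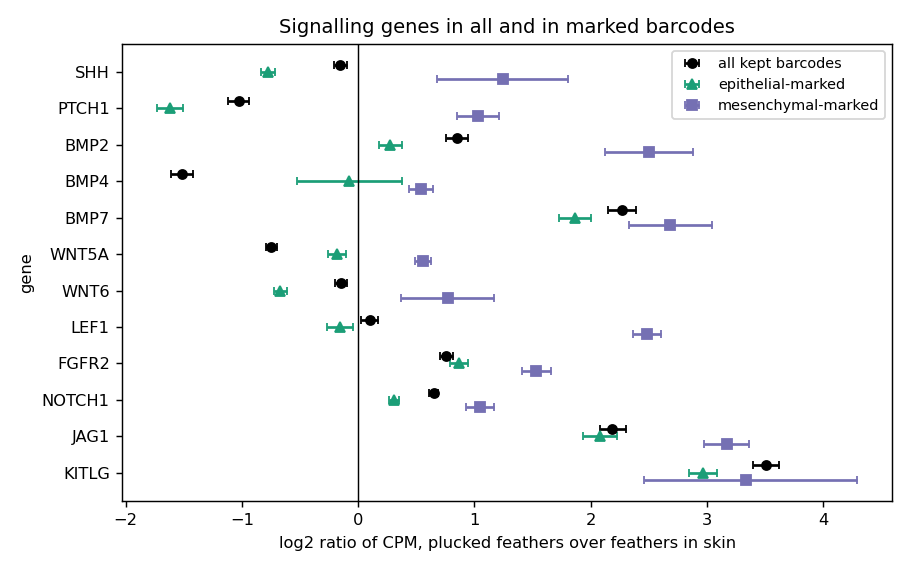
Log2 ratio of CPM (plucked feathers over feathers in skin) of 12 signalling genes over all kept barcodes (black circles), epithelial-marked (green triangles) and mesenchymal-marked barcodes (purple squares), with exact 95% counting intervals as bars. PTCH1 lay below 0 in epithelial-marked and above 0 in mesenchymal-marked barcodes, and JAG1 and KITLG lay above 0 in all 3.

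Of 16 guidance and adhesion genes at 50 CPM, 6 were at least 2-fold higher in plucked feathers and 4 in skin, where 20.2% and 6.08% of all tested genes were. In epithelial-marked barcodes 7 of 14 were higher in plucked feathers and none in skin (18.3% and 4.16% over all genes tested there), and in mesenchymal-marked barcodes 4 of 19 and 1 (25.6% and 4.08%). NRCAM, a neural cell adhesion molecule, had 76.0 against 12.6 CPM (6.03-fold (5.51 to 6.61)) and NRP1, a semaphorin and VEGF co-receptor, 349.6 against 83.2 CPM (4.20-fold (4.05 to 4.35)). SEMA3F, a repulsive semaphorin, had 16.5 against 70.9 CPM (4.30-fold (3.99 to 4.63) higher in skin), and CDH11, a cadherin of mesenchyme, 121 against 394 CPM (3.26-fold (3.17 to 3.36)). NCAM1, used by feather bud mesenchyme and barb plate epithelium, had 87.4 against 183 CPM over the whole libraries and 70.6 against 41.8 CPM in epithelial-marked barcodes. The epithelial-marked ratio of NCAM1 thus had the opposite sign to the whole-library one.

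Markers of further cell types were mostly low over the whole libraries. No leukocyte marker of 14 measured reached 50 CPM, and their summed level was 24.7 CPM in plucked feathers and 48.6 CPM in the skin library. Endothelial markers summed to 152 and 157 CPM and pericyte markers to 34.1 and 28.9 CPM. Within mesenchymal-marked barcodes the sums were higher in plucked feathers, at 762 against 312 CPM for endothelial and 402 against 73.5 CPM for pericyte markers. Whether this mixture bears on the basement membrane genes of that class was not tested. Pigment cell markers summed to 275 and 247 CPM. The pigment cell genes PMEL (46.2 against 85.1 CPM) and MLANA (27.5 against 64.9 CPM, Z-linked) were lower in plucked feathers, whereas MITF (146 against 48.8 CPM) was carried mostly by epithelial-marked barcodes (155 against 60.9 CPM). Of 14 skeletal muscle markers only ACTA1 reached 50 CPM (18.8 against 135 CPM), and 3 of the markers had no UMI in plucked feathers and 2 none in skin (a library's 0 allows up to 3 UMIs). FABP7, a fatty acid binding protein of glia and their precursors, had 12.1 against 92.6 CPM (7.68-fold (7.07 to 8.36) higher in skin). It is 1 of 15 neural and Schwann cell markers. Of these, 2 reached 50 CPM, FABP7 and 1 that was at least 2-fold higher in plucked feathers (6.08% and 20.2% over all tested genes). The 15 summed to 536 CPM in plucked feathers and 293 CPM in the skin library. Their sum was 576 against 288 CPM in epithelial-marked barcodes and 366 against 254 CPM in those of neither class. In mesenchymal-marked barcodes it went the other way, at 172 against 312 CPM. Whether the sum reflects neural or Schwann cells was not tested.

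Ribosomal protein, immediate early, heat shock and glycolysis genes were mostly less than 2-fold apart, as were most tested genes. Over all tested genes 20.2% were at least 2-fold higher in plucked feathers and 6.08% in skin, or 26.2% either way. Of 69 ribosomal protein genes, 3 were at least 2-fold higher in skin and none in plucked feathers, with a median log2 ratio of -0.30. Their share of UMIs was 25.3% and 31.4% in epithelial-marked and 22.8% and 32.6% in mesenchymal-marked barcodes (plucked, then skin), and this share enters every CPM through the total. Of 20 immediate early genes, which respond to dissociation among other stimuli, 2 were higher in each library, with NFKBIZ at 394 against 77.6 CPM (5.08-fold (4.90 to 5.27)) and KLF2 at 20.5 against 206 CPM (10.0-fold (9.42 to 10.7) higher in skin). JUN had 1569 against 1659 CPM and FOS 896 against 1166 CPM. Of 20 heat shock genes none was higher in plucked feathers and 2 in skin, HSPB1 (8.52 against 66.0 CPM) and SERPINH1, the collagen chaperone (82.2 against 283 CPM). Of 14 glycolysis and hypoxia genes none was 2-fold apart. The medians of heat shock genes (0.24), glycolysis genes (0.02) and 6 retinoic acid genes (0.17) turned negative under at least 1 of the other scalings, while all other list medians kept their sign. The 5 HOX genes at 50 CPM had a median of -0.76 with none 2-fold apart.

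Genes of the Z chromosome had a lower median ratio than other genes. Female birds carry 1 Z chromosome and males a pair, with dosage compensation known to be incomplete. The 131 Z-linked genes tested had a median log2 ratio of -0.28 and the 2929 genes on other named chromosomes one of 0.24, a difference of -0.53. Of the Z-linked genes 30 (22.9%) were at least 2-fold higher in skin and 22 (16.8%) in plucked feathers, against 6.08% and 20.2% of all tested genes. The difference was -0.56 in epithelial-marked and -0.58 in mesenchymal-marked barcodes. W-linked genes were almost absent from skin: HNRNPKL had 5589 UMIs in plucked feathers and 12 in skin, and SPIN1W had 1548 and 0 UMIs. SPIN1W was 405-fold higher in plucked feathers with the 0 set to 3 UMIs, and the lower limit of its exact interval was 329-fold. Without the genes known to be Z- or W-linked, 665 genes were at least 2-fold higher in plucked feathers and 178 in skin. Genes without a chromosome name stay in these counts, among them the 5 unnamed entries with 5 UMIs or fewer in the skin library.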

How the data were processed

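The deposited values are raw UMI counts per gene and barcode for 16878 genes, made by the authors with Cell Ranger 3.1.0 for both day-12 libraries per the file headers. The submitters' processing notes list Cell Ranger 7.0.0 and genome build GRCg6a, and whether intronic or antisense reads were counted is not given in the sources used here. Chromosome names came from a RefSeq gene table of another assembly (11950 genes matched), so no coordinates or sequences are printed.

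Barcodes were filtered as described, without doublet removal, and UMIs were summed per library (Python 3.11.15, numpy 2.4.6, scipy 1.17.1, pandas 2.3.3, matplotlib 3.10.9). Ratios of CPM have exact conditional 95% intervals and shares exact Clopper-Pearson intervals. PCR copies were collapsed, but droplets of 1 library are not independent animals, so these cover counting error only. A count of 0 was set to 3 UMIs. Scrublet (scanpy 1.11.5) marked 178 kept barcodes (2.99%) of plucked feathers and 67 (1.30%) of the skin library, left out in an alternative. TMM was reimplemented, and the comparison was tested on simulated data.

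Named genes are the 12 highest and 12 lowest ratios with a symbol, with W-linked, mitochondrial and globin genes left out of the ranking and named apart, 5 and 5 in each class (2 of these are not reported here), each list's 3 extremes on either side and 2 highest levels, and a set of ligands and receptors. PMEL, ACTA2, KRT5, SMTN, COL3A1, HHIP, THBS2 and a few more members lie outside it and were chosen after their values were seen. The gene groups, class rule and 37 lists were chosen with earlier results of these data known. Of 30 epithelial markers 23 were found. KRT13, ALAS1, CCNB1 and 8 other entries stand in by synonym for listed symbols and are reported under the deposited symbols. The split by class, the relation to the median gene and the exclusion of Z- and W-linked genes were chosen after seeing the data.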

Additional observations from a re-analysis of the deposited data

Results flagged for a closer look

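In 3 genes of the lists the ratio lay at least 2-fold apart in opposite directions in the marked classes, and the difference between the classes was not tested. SOSTDC1, a secreted inhibitor of BMP and WNT signals, had 21.7 against 51.8 CPM (plucked feathers against feathers in skin) in epithelial-marked barcodes and 555 against 243 CPM in mesenchymal-marked ones, a difference of -2.45 between the log2 ratios. PTCH1 had 22.9 against 70.0 CPM and 93.0 against 45.5 CPM, a difference of -2.65. NFKBIA, an inhibitor of NF-kappa-B, had 183 against 412 CPM and 109.8 against 52.3 CPM, a difference of -2.24.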

How the results depend on the processing

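None of 42 named genes changed direction under the 15 settings tried on them, which says little of stability: most were chosen for extreme ratios, 2 of the settings leave a gene's ratio as it is and 4 shift all ratios by 1 constant. Counts depended on the level asked of a gene. With no minimum beyond 1 UMI in each library, 3843 genes were at least 2-fold higher in plucked feathers and 1661 in skin, 4870 lay apart in epithelial-marked and 5521 in mesenchymal-marked barcodes, against 689, 208, 736 and 1039 at 50 CPM. At 100 CPM these were 334, 111, 349 and 481. TMM gave 452 and 352 genes, the median of ratios 443 and 363, and the relation to the median gene 317 in skin. Equal class weights gave 103 in skin, and a mitochondrial limit of 5% gave 1134 in epithelial-marked barcodes. In these the cause was not tested, other than the number of genes admitted by the minimum. The difference in epithelial-marked share (33.8 points) was 36.7 with a class rule of 10 times, 20.1 with the 5% mitochondrial limit and 38.1 with at least 1000 genes. The Z-linked difference (-0.53) was -0.60 at 100 CPM, -0.46 with 10 CPM added, -0.55 with the 5% limit, -0.56 in epithelial-marked and -0.58 in mesenchymal-marked barcodes. The remaining settings left the counts within 1.5 times. No paired analysis was possible because each group has 1 library. That single library a side is the main limit: embryo, sex, preparation and tissue cannot be told apart.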

Other observations

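Barcodes over the 10% mitochondrial limit, which enter no comparison above, were summed in the same way with the other limits unchanged. There were 4428 in plucked feathers with 13832273 UMIs and 2418 in the skin library with 11608534 UMIs. Of the genes at least 2-fold higher in plucked feathers, 517 of 689 (75.0%) were so in these barcodes as well, and 156 of 208 (75.0%) of those higher in skin, while 0 were 2-fold apart the other way. All 12 highest and all 12 lowest named genes kept a 2-fold difference. The epithelial-marked share was 63.9% in plucked feathers and 46.5% in the skin library. These barcodes come from the same libraries and are no replicate. The genes were chosen by their ratios in those libraries, and the named ones by extreme ratios, so a kept direction says little. The share of all tested genes that were 2-fold apart in these barcodes is not given here.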
